A study of Mus musculus with 22 samples.

Results

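The 10 genes described here encode secreted regulators of Wnt and bone morphogenetic protein (BMP) signalling. As a group they carry the label of gut connective tissue genes, and the cells that made each of them were not tested. They are the Wnt ligands Wnt2b, Wnt4 and Wnt5a, the R-spondins Rspo1, Rspo2 and Rspo3, the BMP antagonist Grem1, and the secreted Wnt modulators Sfrp1, Dkk3 and Wif1. They were chosen by name from the 23997 genes of the deposited expression table, and all 10 were found there. The values are FPKM, fragments per length of transcript and size of library, in 22 libraries of whole colon from wild type BALB/c mice. Mice of the DSS group (5 libraries) drank distilled water for 3 weeks, with 5% dextran sulfate sodium (DSS) added for the last 1 week, an agent that injures the colonic epithelium and causes colitis. The HMLS group (4 libraries) and the TM group (5 libraries) drank a deep sea water of that name for the same 3 weeks, with 5% DSS in it for the last 1 week. Mice of the control group, CON (8 libraries), drank distilled water for 3 weeks without DSS. All groups were 5 weeks old at the start, per the sample labels, while the series text speaks of mice aged 8 weeks when colitis was induced. No group drank deep sea water without DSS, so the effect of a water alone is not part of the design.

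Wnt proteins act over short distances. In the intestine, fibroblasts and myofibroblasts beneath the crypts supply them to the stem cells, which need β-catenin signalling to divide. R-spondins bind Lgr receptors and withdraw the ubiquitin ligases Rnf43 and Znrf3 from Wnt receptors, so that a cell responds more strongly to the Wnt it receives. BMP signals from the upper mucosa favour differentiation, and Gremlin 1, the product of Grem1, holds them off near the crypt base.

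The libraries held 48089882 to 68733410 reads. In DSS libraries 82.3% to 88.9% of reads were mapped, below each of the CON libraries at 89.9% to 91.9%, while HMLS libraries had 88.8% to 90.5% and TM libraries 89.5% to 92.7%. The tissue label was checked against marker genes: the summed level of 9 epithelium markers was 2909 to 6430 FPKM and that of 11 smooth muscle markers 652 to 2714 FPKM over the 22 libraries. The summed level of 17 fibroblast markers was 181 to 376 FPKM in DSS, 233 to 335 in HMLS, 280 to 734 in TM and 441 to 658 in CON. A single TM library, numbered 3 in its title, made the upper end in TM. It had the highest fibroblast sum of the 22 libraries and the highest value in 7 of the 17 genes, and the other 4 TM libraries reached at most 359 FPKM. CON library 8 had the lowest fibroblast sum in CON. In bulk tissue, fewer cells of a type and less RNA per cell cannot be told apart. The labels do not state that libraries are from different mice, so the p-values measure the spread between these libraries.

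Per length of transcript and by group mean, Dkk3 was the most abundant of the 10 genes in each group and Rspo2 the least. Single libraries differed: Dkk3 exceeded Grem1 in 4 of 5 TM libraries, and Rspo1 exceeded Rspo2 in 3 of 5 DSS libraries. By median, Rspo2 (0.246 FPKM) was above Rspo1 (0.214 FPKM) in DSS. Mean FPKM in CON ran in the order Dkk3 (12.3), Grem1 (5.29), Sfrp1 (5.16), Wnt5a (3.89), Wnt2b (3.15), Rspo3 (1.59), Wif1 (1.38), Wnt4 (1.06), Rspo1 (0.643) and Rspo2 (0.175). In CON, Dkk3 was separated from the next gene by more than the range of the libraries, and all other neighbours in the order overlapped. Grem1 exceeded Sfrp1 in 4 of 8 CON libraries, so these levels do not differ beyond their spread. In DSS, Sfrp1 came behind Wnt2b and Wnt5a, with 3 of 5 DSS libraries higher in Wnt5a than in Sfrp1. Each of the 10 genes lay above 0 in all libraries except Rspo2, which was listed at 0 in 1 TM and 1 CON library.

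**Figure D1:**
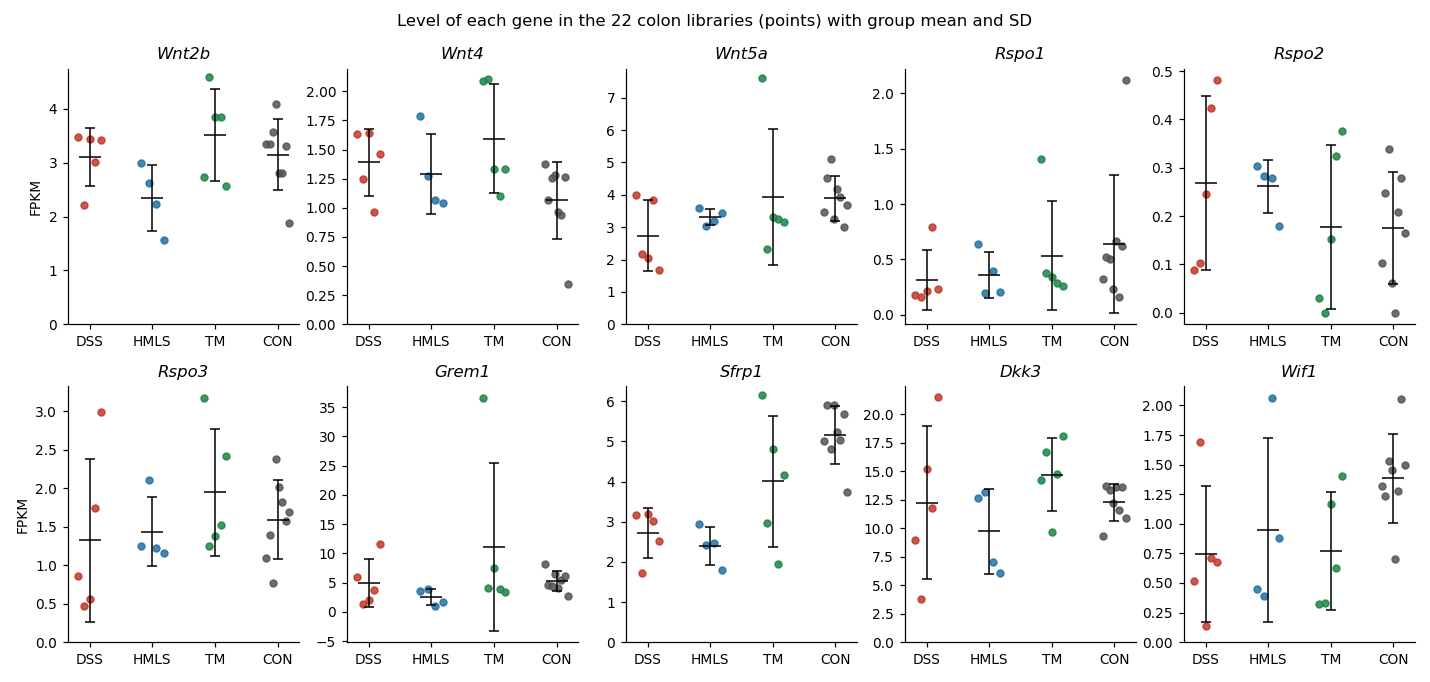
FPKM of each gene (y axis) in the 22 libraries by group (x axis), with points for libraries, long bars for group means and whiskers for the SD. Sfrp1 lay lower in all DSS and HMLS libraries than in all CON libraries, and TM library 3 is the highest point in Grem1 (36.5 FPKM) and Wnt5a (7.60 FPKM), while in Rspo1 it (1.41 FPKM) lies behind CON library 8 (2.12 FPKM).

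Of the 10 genes, 8 had at least 1 FPKM in at least 4 libraries and were tested in each comparison, and Rspo1 and Rspo2 were below that filter. Differences are on the log2(FPKM + 1) scale, on which the change of genes of low level is understated, and a gene passed at an adjusted p under 0.05 from limma. In DSS against CON, 1 of the 8 passed, Sfrp1, which was lower, and none was higher. In that comparison 27.1% of 13483 genes passed, 14% higher and 13.1% lower. In HMLS against CON, Sfrp1 and Grem1 were lower and none was higher, where 34.1% of 13400 genes passed, 17.5% higher and 16.6% lower. In TM against CON none of the 8 passed, where 26% of 13485 genes did, 14.3% higher and 11.8% lower. Over both directions, the share of the 8 that passed did not exceed the background in any comparison with CON. Counting lower genes alone, 2 of 8 passed in HMLS beside 16.6% of all genes, and 1 of 8 in DSS beside 13.1%. With only 8 genes, such counts cannot be set apart from those shares. The median difference of the 8 was -0.27 in DSS, -0.33 in HMLS and 0.14 in TM against CON, beside -0.01, 0.00 and 0.01 over all genes tested. These 3 comparisons share the same 8 CON libraries.

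**Figure D2:**
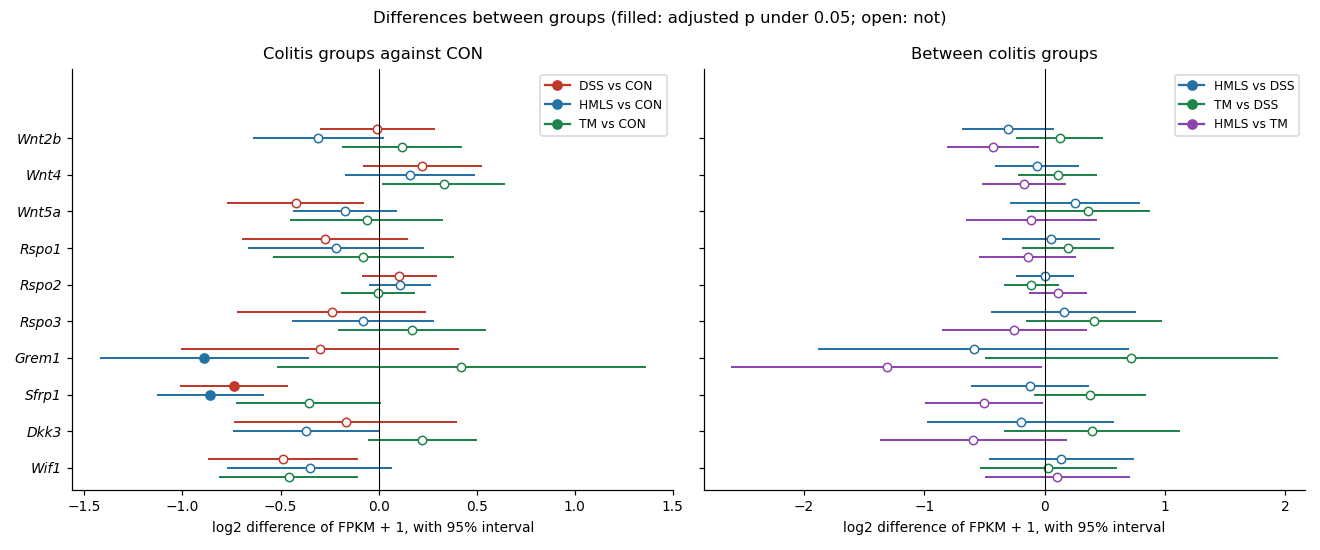
Difference of each gene on the log2(FPKM + 1) scale (x axis) with its 95% interval, for the colitis groups against CON (left) and between colitis groups (right), with filled points for an adjusted p under 0.05. Filled points are Sfrp1 in DSS (-0.74) and in HMLS (-0.86) and Grem1 in HMLS (-0.89), each against CON, and the values of Rspo1 and Rspo2 come from the fit without a filter.

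Sfrp1, a secreted frizzled-related protein that binds Wnt ligands outside the cell, was lower in DSS and in HMLS than in CON. It lies on chromosome 8 at 23411502 to 23449632 of GRCm38, plus strand. Sfrp1 stood at 3.17, 1.72, 3.20, 3.01 and 2.52 FPKM in the 5 DSS libraries and at 2.95, 2.41, 2.46 and 1.79 FPKM in the 4 HMLS libraries. In the 5 TM libraries it stood at 6.15, 2.96, 4.82, 1.94 and 4.17 FPKM, and in CON its lowest, median and highest values were 3.73, 5.14 and 5.90 FPKM. All DSS and all HMLS libraries were below all CON libraries, whereas TM libraries ran from below the lowest to above the highest CON library. Sfrp1 fell by 0.74 in DSS (SE 0.13, adjusted p = 0.0017) and by 0.86 in HMLS (SE 0.13, adjusted p = 0.0005), both against CON. In TM the difference from CON was -0.36 (95% interval -0.73 to 0.01, adjusted p = 0.14), and without TM library 3 it was -0.50 (adjusted p = 0.0276).

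Fibroblast markers moved with Sfrp1. Of the 17 genes of that list, 12 fell in DSS, 13 in HMLS and 8 in TM against CON, with none higher and median differences of -0.80, -0.73 and -0.56. Col6a3, which encodes a collagen VI chain, fell by 1.25 in DSS (adjusted p = 0.00027), and Col3a1, which encodes type III collagen, by 1.66 (adjusted p = 0.00085). Col1a1 and Cd34, a sialomucin of connective tissue and vessel cells, fell by 1.06 and 1.11. Without TM library 3, 12 of the fibroblast markers were lower in TM. The summed level of these markers in DSS and HMLS (181 to 376 FPKM) did not overlap with that in CON (441 to 658 FPKM), and its part in the lower Sfrp1 was not tested. Markers of white adipocytes, endothelium and pacemaker cells were also lower in DSS, as given with the other cell types, and their part was not tested either. The share of mapped reads also separated DSS from CON. With that share as a covariate Sfrp1 differed by -0.75 in DSS (adjusted p = 0.152), none of the fibroblast markers passed, and 26 of 13483 genes passed in all, so DSS and the share of mapped reads cannot be told apart.

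**Figure D3:**
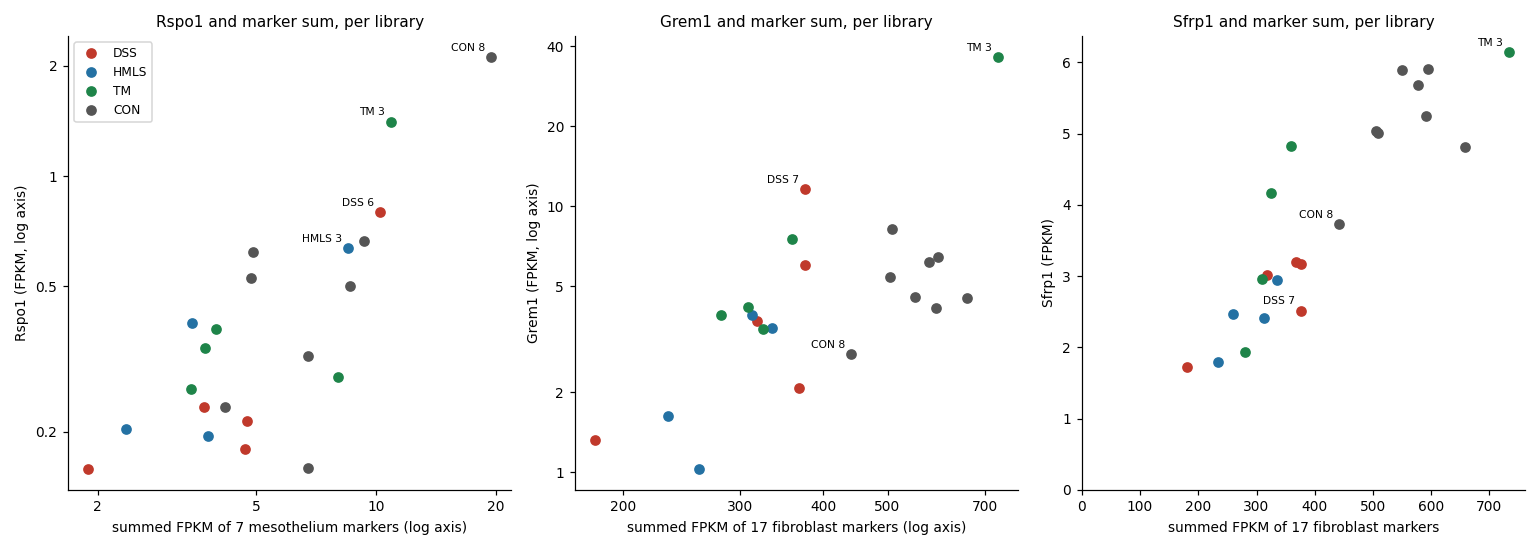
Level of Rspo1 against the summed FPKM of 7 mesothelium markers, and of Grem1 and Sfrp1 against the summed FPKM of 17 fibroblast markers, 1 point for each of the 22 libraries and colours for groups (left and middle panels with log axes). CON library 8 (Rspo1) and TM library 3 (Grem1, Sfrp1) are the points with the highest value of both measures in their panels.

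Grem1, on chromosome 2 at 113746164 to 113758646 of GRCm38, minus strand, varied widely between libraries of a group. It stood at 6.01, 1.32, 2.07, 3.71 and 11.6 FPKM in DSS and at 3.50, 3.90, 1.03 and 1.63 FPKM in HMLS. In TM it stood at 36.5, 4.17, 7.55, 3.90 and 3.47 FPKM, and in CON its lowest, median and highest values were 2.79, 5.01 and 8.24 FPKM. All 4 HMLS libraries were below the CON median and 2 of them below every CON library. TM library 3 and DSS library 7 were above all CON libraries, and the remaining TM libraries lay within the CON range. Grem1 fell by 0.89 in HMLS against CON (SE 0.25, adjusted p = 0.0143). This call did not hold in every setting, and was lost for example in 1 fit of all 4 groups (adjusted p = 0.159) and without HMLS library 8 (adjusted p = 0.0579). Grem1 differed by -0.30 in DSS (interval -1.01 to 0.41, adjusted p = 0.52) and by 0.42 in TM (interval -0.52 to 1.36, adjusted p = 0.50) against CON, and without TM library 3 the TM difference was -0.13. Igfbp5, which encodes an insulin-like growth factor binding protein, and Timp1, a metalloproteinase inhibitor, are among the genes most like Grem1. They were picked for likeness over these same 22 libraries, so their high values beside Grem1 follow in part from that choice. TM library 3 held 117 FPKM of Igfbp5, 7.55 FPKM of Timp1 and 63.9 FPKM of Col1a1, each the highest of the 22 libraries. DSS library 7 held 66.3 FPKM of Igfbp5 and 4.43 FPKM of Timp1. The listed fibroblast markers were mixed in DSS library 7. Of the 17, 2 had their highest value of the 22 libraries there. Col1a1 was 10.2 FPKM in DSS library 7, against at least 22.9 FPKM in CON. The fibroblast sum of DSS library 7 was 376 FPKM, below all CON libraries. The summed level of 9 leukocyte markers, looked at after the values were seen, was highest in the library with the highest Grem1 in each group. It was 85.3 FPKM in DSS library 7, 35.1 in HMLS library 6, 117 in TM library 3 and 52.3 in CON library 1. The same library was lowest in both in HMLS, TM and CON, but not in DSS. The part of a different share of fibroblasts or leukocytes in these Grem1 values was not tested.

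Of the Wnt ligands, Wnt5a, which acts mainly through β-catenin-independent receptors such as Ror2, was lower in part of the DSS libraries. It lies on chromosome 14 at 28504750 to 28527448 of GRCm38, plus strand, and overlaps the antisense gene Gm2670. No source used here says whether the authors' counting used strand, so reads of the pair may not be separated. Wnt5a stood at 4.0, 2.16, 2.04, 3.84 and 1.66 FPKM in DSS, at 3.60, 3.04, 3.20 and 3.43 FPKM in HMLS and at 7.60, 2.31, 3.33, 3.25 and 3.15 FPKM in TM. In CON its lowest, median and highest values were 3.01, 3.81 and 5.10 FPKM. Of the 5 DSS libraries 3 were below all CON libraries and 2 lay inside the CON range, and all 4 HMLS libraries lay inside it. The difference from CON was -0.42 in DSS (SE 0.16, adjusted p = 0.0666), -0.17 in HMLS (adjusted p = 0.30) and -0.06 in TM (adjusted p = 0.83), which was -0.28 without TM library 3 and 0.062 without TM library 5. The DSS value passed without DSS library 1 (-0.54, adjusted p = 0.022) and without DSS library 6 (-0.53, adjusted p = 0.0315), the DSS libraries with the highest Wnt5a. Without its highest libraries the DSS mean falls by itself, so these passes add no support.

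Wnt2b, a ligand of the β-catenin pathway made by crypt fibroblasts, lies on chromosome 3 at 104945272 to 104961921 of GRCm38, minus strand. It stood at 3.47, 2.21, 3.45, 3.01 and 3.42 FPKM in DSS, at 2.99, 2.62, 2.23 and 1.56 FPKM in HMLS and at 2.74, 4.60, 3.85, 3.84 and 2.56 FPKM in TM. In CON its lowest, median and highest values were 1.88, 3.33 and 4.09 FPKM. The DSS libraries all lay within the CON range, and all 4 HMLS libraries were below the CON median. Against CON the difference was -0.01 in DSS (interval -0.30 to 0.29), -0.31 in HMLS (interval -0.64 to 0.03) and 0.12 in TM (interval -0.19 to 0.42), with adjusted p of 0.98, 0.14 and 0.56. Without CON library 8, which had the lowest Wnt2b in CON, the HMLS difference was -0.38 (adjusted p = 0.0447), that of DSS -0.079 and that of TM 0.047. Without TM library 3 the TM difference was 0.18.

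Wnt4, a ligand that can signal with or without β-catenin, was the only one of the 8 tested genes with a positive estimate in all 3 comparisons with CON, and none of them passed. It lies on chromosome 4 at 137277489 to 137299726 of GRCm38, plus strand. Wnt4 stood at 1.64, 1.24, 1.64, 0.967 and 1.46 FPKM in DSS, at 1.78, 1.27, 1.07 and 1.04 FPKM in HMLS and at 2.09, 2.11, 1.33, 1.10 and 1.34 FPKM in TM. In CON its lowest, median and highest values were 0.347, 1.16 and 1.37 FPKM. Above the highest CON library were 3 of 5 DSS, 1 of 4 HMLS and 2 of 5 TM libraries. The difference from CON was 0.22 in DSS (SE 0.14, adjusted p = 0.25), 0.16 in HMLS (SE 0.16, adjusted p = 0.45) and 0.33 in TM (SE 0.15, adjusted p = 0.11). CON library 8 held the lowest value, and without it the differences were 0.14, 0.075 and 0.25.

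Among the R-spondins, Rspo3 was the most abundant in 21 of 22 libraries, CON library 8 being the exception. The R-spondins bind Lgr4, Lgr5 and Lgr6. Rspo3 lies on chromosome 10 at 29452416 to 29535867 of GRCm38, minus strand, and overlaps the antisense gene Gm48159. It stood at 0.856, 0.463, 0.564, 1.74 and 2.99 FPKM in DSS, at 1.24, 2.11, 1.23 and 1.16 FPKM in HMLS and at 3.17, 1.25, 1.37, 1.53 and 2.42 FPKM in TM. In CON its lowest, median and highest values were 0.770, 1.63 and 2.38 FPKM. DSS libraries were on both sides of the CON range, with 2 below it and 1 above it. The difference from CON was -0.24 in DSS (interval -0.72 to 0.24), -0.08 in HMLS (interval -0.44 to 0.28) and 0.17 in TM (interval -0.21 to 0.55), with adjusted p of 0.45, 0.73 and 0.50. Without TM library 3 the TM difference was 0.034. DSS library 7, which had the lowest share of mapped reads of the 22, held the highest DSS value, and without it the DSS difference was -0.46 (adjusted p = 0.105).

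Rspo1 and Rspo2 stayed below 1 FPKM in nearly all libraries. Rspo1 lies on chromosome 4 at 124986430 to 125009099, plus strand, and Rspo2 on chromosome 15 at 43020794 to 43170826, minus strand, both of GRCm38. Rspo1 stood at 0.179, 0.158, 0.214, 0.796 and 0.233 FPKM in DSS, at 0.637, 0.195, 0.398 and 0.204 FPKM in HMLS and at 1.41, 0.381, 0.338, 0.283 and 0.262 FPKM in TM, and in CON its lowest, median and highest values were 0.160, 0.512 and 2.12 FPKM. In DSS, TM and CON a single library was well above the rest, and in HMLS the highest library (0.637 FPKM) was followed by one at 0.398 FPKM. In the fit without a filter, in which 14.8% of 21437 genes passed for DSS against CON, 20.7% of 21145 for HMLS against CON and 15.3% of 21218 for TM against CON, Rspo1 differed from CON by -0.27 in DSS, -0.22 in HMLS and -0.08 in TM, with adjusted p of 0.40, 0.51 and 0.83. Without CON library 8 these Rspo1 differences were -0.13, -0.076 and 0.064, and without TM library 3 the TM difference was -0.25. Rspo2 ran from 0.0887 to 0.481 FPKM in DSS, from 0.179 to 0.303 in HMLS, from 0 to 0.377 in TM and from 0 to 0.338 in CON. Its differences from CON were 0.10 in DSS, 0.11 in HMLS and 0.00 in TM, with 95% intervals of -0.09 to 0.30, -0.05 to 0.26 and -0.19 to 0.18 and adjusted p of 0.47, 0.34 and 0.98.

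The library with the highest Rspo1 in each group was also high in genes of the mesothelium, the cell layer that covers the outside of the bowel. A summed level was taken over 7 of the 8 listed mesothelium markers, leaving out Krt19, which colonic epithelium also expresses and which made up most of the full sum. This choice was made after the values were seen, and with Krt19 the sum of all 8 was highest in other libraries of 3 groups, DSS library 2, HMLS library 6 and CON library 4, and in TM library 3 again. The sum was 10.3 FPKM in DSS library 6 against at most 4.73 in the other DSS libraries, 8.54 in HMLS library 3 against at most 3.78, 10.9 in TM library 3 against at most 8.03, and 19.5 in CON library 8 against at most 9.36. The same libraries held the highest Rspo1 of their groups, at 0.796, 0.637, 1.41 and 2.12 FPKM. Of the 7 genes, 6, 5, 6 and 6 were highest there within their groups. Below the top the orders differed: TM library 7, at 8.03 FPKM in the sum, ranked 4 of 5 in Rspo1 (0.283 FPKM), and HMLS library 6, at 3.78 FPKM, ranked 4 of 4 (0.195 FPKM). Other marker sums were also highest in 3 of these libraries. HMLS library 3 led its group in fibroblast (335 FPKM), smooth muscle (2685 FPKM), endothelial and other markers. TM library 3 led in fibroblast (734 FPKM), leukocyte (117 FPKM) and other markers, and CON library 8 in epithelium (4838 FPKM), glia and neuron markers. DSS library 6 led in none of the other cell types. The part of mesothelium or of these other cell types in the Rspo1 values was not tested.

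TM library 3 stood apart in both Rspo1 and Grem1, and the proximal promoters of these genes are shown for that reason. Promoter windows of RefSeq on GRCm38.p6 were matched for 5 of the 10 genes, and in these 2 the 250 bases before the start hold no annotated exon. Capitals mark the CCAAT box, found at 1 place in Grem1 and not in Rspo1.
Rspo1, chr4:124986180-124986429, plus strand: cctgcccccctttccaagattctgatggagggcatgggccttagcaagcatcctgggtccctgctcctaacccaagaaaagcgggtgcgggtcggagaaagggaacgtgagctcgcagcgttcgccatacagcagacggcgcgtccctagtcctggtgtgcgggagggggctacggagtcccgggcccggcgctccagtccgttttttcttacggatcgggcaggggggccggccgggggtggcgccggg
Grem1, chr2:113758649-113758898, minus strand: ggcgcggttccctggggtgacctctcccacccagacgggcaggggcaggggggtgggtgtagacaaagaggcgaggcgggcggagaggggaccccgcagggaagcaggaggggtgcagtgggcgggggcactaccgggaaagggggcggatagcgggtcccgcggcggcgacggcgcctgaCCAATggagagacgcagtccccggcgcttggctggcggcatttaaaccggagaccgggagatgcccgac
CCAAT, searched on both strands, was found in 33.8% of 32851 promoter windows of the same length. The Grem1 window also holds GGGCGG, the letters of the GC box, which 32.7% of the windows have and the Rspo1 window has not. CTTTGAT, a TCF/LEF motif found in 3.21% of windows, TGAGTCA, an AP-1 motif found in 4.46%, and TATAAA, found in 12.4%, are in neither of the 2 windows. A match of letters is a description and shows no binding.

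Dkk3, a divergent member of the Dickkopf family whose effect on Wnt signalling depends on the cell, lies on chromosome 7 at 112116017 to 112159057 of GRCm38, minus strand. It stood at 8.97, 3.77, 15.2, 11.8 and 21.5 FPKM in DSS, at 12.6, 13.1, 7.04 and 6.03 FPKM in HMLS and at 14.2, 16.7, 9.65, 14.7 and 18.1 FPKM in TM. In CON its lowest, median and highest values were 9.29, 12.8 and 13.7 FPKM. The SD was 6.67 FPKM in DSS and 1.60 FPKM in CON. DSS libraries lay on both sides of the CON range, 4 of 5 TM libraries were above it, and 2 of 4 HMLS libraries were below it. The difference from CON was -0.17 in DSS (adjusted p = 0.66; 0.16 without DSS library 2), -0.37 in HMLS (adjusted p = 0.12) and 0.22 in TM (adjusted p = 0.22). It passed in HMLS without HMLS library 3 (-0.51, adjusted p = 0.0475) or without HMLS library 6 (-0.52, adjusted p = 0.0352), and in TM without TM library 6 (0.36, adjusted p = 0.0303). These are the highest HMLS libraries and the lowest TM library, and leaving them out enlarges the differences by itself.

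Wif1, Wnt inhibitory factor, which binds Wnt proteins, lies on chromosome 10 at 121033960 to 121100650 of GRCm38, plus strand. It stood at 0.519, 1.69, 0.141, 0.708 and 0.678 FPKM in DSS, at 0.453, 0.393, 2.06 and 0.881 FPKM in HMLS and at 0.323, 0.327, 1.17, 0.623 and 1.41 FPKM in TM. In CON its lowest, median and highest values were 0.706, 1.39 and 2.05 FPKM. In DSS 3 of 5 libraries, in TM 3 of 5 and in HMLS 2 of 4 were below all CON libraries, and each group also had a library above the CON median. The difference from CON was -0.49 in DSS (SE 0.18, adjusted p = 0.0551), -0.35 in HMLS (SE 0.20, adjusted p = 0.18) and -0.46 in TM (SE 0.17, adjusted p = 0.0546). Wif1 reached 1 FPKM in 7 of 8 CON libraries, but in 1 of 5 DSS, 1 of 4 HMLS and 2 of 5 TM libraries. In each fit against CON it passed the filter only through CON, so these differences are a description. The DSS and TM values lay just outside the threshold. Leaving out a high library of the lower group, or a low one of CON, enlarges a difference by itself. The DSS difference passed without DSS library 2, the highest of its group (-0.66, adjusted p = 0.0108), and without CON library 5, the lowest of CON (-0.56, adjusted p = 0.0371). The HMLS difference passed without HMLS library 7, the highest of its group (-0.59, adjusted p = 0.0147). In TM it passed without CON library 5 (-0.52), without TM library 6 (-0.54) and without TM library 8 (-0.58), with adjusted p of 0.0312, 0.0361 and 0.0238. It also passed under both other scalings of the libraries, at -0.51 and -0.53 in DSS and at -0.47 and -0.48 in TM.

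Between the colitis groups none of the 8 tested genes passed, and neither did any of the 13341 genes tested (0%) in HMLS against DSS, TM against DSS or HMLS against TM. At an unadjusted p under 0.05, limma called 740, 367 and 1260 genes in these comparisons, which is 5.55%, 2.75% and 9.44%. The 3 comparisons share libraries pairwise. In TM against DSS all 8 estimates were positive, with a median of 0.37 beside 0.00 over all genes, although Dkk3 stood at -0.14 with the replicate number as a block. The share of mapped reads did not overlap between these groups (89.5% to 92.7% in TM, 82.3% to 88.9% in DSS), and with it as a covariate Wnt5a stood at -0.10 and Wif1 at -0.053. Wif1 was also -0.0049 without DSS library 1 and -0.11 without DSS library 5. The largest was Grem1 at 0.72 (interval -0.49 to 1.94), which was 0.17 without TM library 3, and Sfrp1 differed by 0.38 (interval -0.08 to 0.84), which was 0.23 without it. Without TM library 3, Rspo3 differed by 0.27 between TM and DSS, against 0.41 with it. In HMLS against TM, 7 of 8 estimates were negative, with a median of -0.34 beside -0.01 over all genes. Grem1 differed by -1.31 (interval -2.60 to -0.02, adjusted p = 0.52), Sfrp1 by -0.50 (interval -0.99 to -0.01, adjusted p = 0.52) and Wnt2b by -0.43 (interval -0.81 to -0.05, adjusted p = 0.49). Without TM library 3 the Grem1 difference was -0.76 and that of Sfrp1 -0.36, and Wnt2b differed by -0.49 (adjusted p = 0.73). In HMLS against DSS the estimates ran from -0.59 for Grem1 to 0.25 for Wnt5a, with a median of -0.09. A p that misses the threshold does not show that these genes were alike in the 3 colitis groups.

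Other genes of the pathway were counted by list in DSS against CON. Over all genes tested in that comparison, 14% were higher and 13.1% lower, so list counts near those shares do not set a list apart. Of 16 other Wnt ligands, 1 reached the filter, Wnt5b (-0.28, SE 0.17, adjusted p = 0.24), and 13 stayed below 1 FPKM in all 22 libraries. Of 12 other secreted Wnt pathway modulators, 3 were tested and 1 fell, Dkk2, a Dickkopf inhibitor, by 0.66 (adjusted p = 0.0073), with medians of 0.248 FPKM in DSS and 1.10 FPKM in CON. Dkk2 was at most 0.317 FPKM in DSS and at most 1.28 FPKM in CON, so it passed the filter only through CON. Genes that entered in this way are among those counted as lower in the lists. Frzb and Sfrp2, relatives of Sfrp1, differed by -0.14 and 0.03 (adjusted p = 0.61 and 0.92). The genes Wls and Porcn, which Wnt proteins need to leave the cell, differed by -0.14 and 0.02 (adjusted p = 0.28 and 0.94).

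Several receptors and target genes of the pathway, many of them expressed by the epithelium, fell. Of 22 tested Wnt and R-spondin receptors, 8 fell and 1 rose, with a median of -0.15. Lgr5, the R-spondin receptor that marks crypt stem cells, fell by 1.40 (adjusted p = 7.5e-05), the frizzled receptor genes Fzd2 and Fzd7 by 0.78 (adjusted p = 0.0011) and 0.60 (adjusted p = 0.0039), and Fzd10 by 0.62 (adjusted p = 0.0058). Lgr5 was at most 0.300 FPKM in DSS, so it passed the filter only through CON. Lgr4, the broadly expressed R-spondin receptor, rose by 0.43 (adjusted p = 0.0293), and is named, after its value was seen, as the only receptor that rose. Without DSS library 7, or scaled without the 100 most abundant genes, none of the Wnt and R-spondin receptors rose. Of 17 tested Wnt target and feedback genes, 10 fell and none rose, with a median of -0.52. Cd44 fell by 1.49, Ascl2, a transcription factor of crypt stem cells, by 1.81, and Tnfrsf19 by 1.33, with adjusted p of 0.00013, 0.00022 and 0.00026. In HMLS 10 of these 17 fell and in TM 9, again against CON. With the share of mapped reads as a covariate, 4 Wnt target and feedback genes and 1 of the Wnt and R-spondin receptors were lower in DSS.

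BMP ligands moved in both directions in DSS against CON. Of 10 tested, 5 fell and 2 rose, with a median of -0.36. Bmp5 fell by 0.93 (adjusted p = 0.0063) and Bmp4 by 0.81 (adjusted p = 0.0334), both ligands of gut stroma, while Bmp2 rose by 0.49 (adjusted p = 0.0182) and Bmp3 by 0.67 (adjusted p = 0.0379). Of 6 other BMP antagonists tested, 3 fell, among them Twsg1 by 0.68 (adjusted p = 0.0015) and Chrdl1 by 0.47 (adjusted p = 0.0402), while Fst, which encodes follistatin, rose by 0.58 (adjusted p = 0.0452). None of the other BMP antagonists rose without CON library 8, without DSS library 7 or under either other scaling, and without DSS library 7 the BMP ligands gave 1 higher and 4 lower. Of 13 tested BMP receptors and target genes, 4 fell, among them Bambi, which encodes a pseudoreceptor, by 1.17 and Id2, a BMP target, by 0.64. Of 9 tested hedgehog ligands and stromal hedgehog targets, 5 fell, among them Ptch1, the hedgehog receptor, by 0.53 (adjusted p = 0.0035), Foxl1, a marker of telocytes, by 0.72 (adjusted p = 0.0037), and Gli1, a hedgehog target, by 0.71 (adjusted p = 0.0083). Foxl1 was at most 0.486 FPKM in DSS and passed the filter only through CON, and Gli1 in DSS reached 1 FPKM only in library 6 (1.20 FPKM). The fibroblast markers described above moved with these stromal genes, and with the share of mapped reads as a covariate none of the BMP ligands and none of the hedgehog ligands and stromal hedgehog targets passed.

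**Figure D4:**
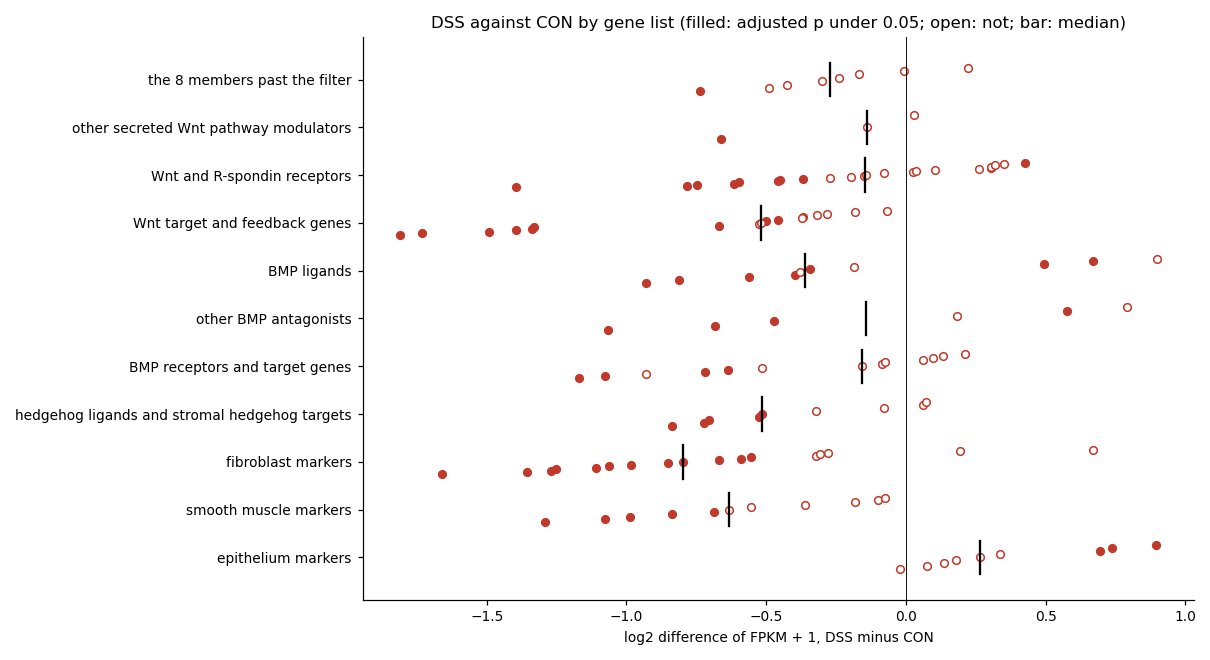
Difference between DSS and CON on the log2(FPKM + 1) scale (x axis) for each tested gene of 11 lists (rows), with filled points for an adjusted p under 0.05 and black bars for list medians. The median was -0.27 for the 8 genes described here, -0.52 for Wnt target and feedback genes, -0.80 for fibroblast markers and 0.27 for epithelium markers.

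Markers of other cell types moved in different directions in DSS against CON. Over all genes tested against CON, 13.1% were lower in DSS, 16.6% in HMLS and 11.8% in TM. Higher were 14%, 17.5% and 14.3%. White adipocyte markers fell in 6 of 7 tested, with a median of -2.08, among them Adipoq, which encodes adiponectin, by 2.98 (adjusted p = 0.0047). Their summed level was 41.8 to 138 FPKM in DSS, 51.2 to 486 in HMLS, 31.5 to 99.4 in TM and 93.9 to 1398 in CON. In HMLS 1 of 7 and in TM 7 of 7 fell, with medians of -1.22 and -2.88, and without DSS library 7, 3 of 7 were lower in DSS. Endothelial and lymphatic markers fell in 4 of 10 in DSS (median -0.57) and in 5 of 10 in HMLS with 1 higher (median -0.50), and none passed in TM (median -0.05). Without TM library 3, 1 of them was higher and 1 lower in TM, and without CON library 8, 2 were lower. Of the pacemaker cell markers 2 of 4 fell in each group, with medians of -0.43 in DSS, -0.29 in HMLS and -0.32 in TM, which was -0.17 without TM library 3. With the share of mapped reads as a covariate none of these 3 lists held a gene that passed in DSS. Of the subepithelial telocyte and myofibroblast markers 4 of 11 fell, and of the smooth muscle markers 5 of 11 fell. The lists share genes, and the telocyte markers that fell include Foxl1, Gli1 and Bmp5, already counted above with the hedgehog and BMP genes. Epithelium markers rose in 3 of 9, and of the leukocyte markers 2 of 9 rose and 1 fell. Without CON library 8, 4 of the leukocyte markers fell, and without DSS library 7, 1 of them rose and 2 of the epithelium markers did. None of the enteric glia markers (6 tested), enteric neuron markers (7 tested) or mesothelium markers (5 tested) passed.

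After the group means were removed, the spread between the 22 libraries was used to find the genes whose levels were most alike, by Pearson's r on log2(FPKM + 1) over 13788 genes. The libraries share a tissue and a scaling, so the values are a description. Dkk3 was most like Timp2 (r = 0.94), Npr2 (0.94) and Akap12 (0.93), and Grem1 most like Timp1 (0.93), Igfbp5 (0.90) and Mapk11 (0.90), which were 0.88, 0.85 and 0.86 without TM library 3. Sfrp1 was most like Rgs10 (0.86), Ednra (0.79) and Snai2 (0.77). Wnt2b was most like Kcnab2 (0.83) and Ltbp4 (0.83), Wnt4 most like Sema3f (0.83), Hhip (0.82) and C1qa (0.82), and Wnt5a most like Psmg2 (0.82), Nop10 (0.81) and Chst1 (0.81). Rspo3 was most like Itgav (0.81), Cd200 (0.78) and Junb (0.76), and Wif1 most like Homer2 (0.79), Mcmbp (0.77) and Endod1 (0.77). Within the set, Wnt2b and Wnt4 were most alike (r = 0.62, and 0.73 without TM library 3), and Dkk3 and Wif1 were most opposed (r = -0.54). Wif1 had a negative r with each of the other tested genes of the set, the weakest with Rspo3 (r = -0.16).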

How the data were processed

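RNA of whole colon in 22 libraries was measured by sequencing after a TruSeq stranded total RNA preparation, per the labels. The submitters' processing notes name bcl2fastq 2.20, Bowtie, TopHat2 2.0.13, Cufflinks 2.2.0 and the build mm10, without settings. The authors deposited 1 table of 23997 genes, read here as FPKM because the notes name Cufflinks and no unit stands in the table. For each library the authors deposited a count of reads, a count of mapped reads and the percent mapped. FPKM divides by library size, so a few very abundant genes can lower all others, and the reads behind each gene's value are unknown. Counts per gene were not analysed here.

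Groups came from the labels. Values were tested as log2(FPKM + 1), with genes kept at 1 FPKM or more in at least 4 libraries of the fit, by limma 3.58.1 in R 4.3.3 with an intensity trend and robust variance. P-values were adjusted by Benjamini-Hochberg over all genes of the fit, at 0.05. Fits against CON held only the groups compared, and the comparisons between colitis groups shared 1 fit. The fit was tested on simulated data. Alternatives changed the pseudocount, filter, scaling, covariates, variance model and libraries. All 10 genes are named in each comparison. From other lists the up to 4 genes with the smallest p among those that passed in DSS against CON are named, and where none passed the 2 with the smallest p. For each gene past the filter over all libraries, the 3 most alike genes are given, leaving out predicted genes. A gene that these rules name is not reported here. The genes, lists and rules were chosen with earlier results of these data known. Positions are from GENCODE M21 and promoters from RefSeq.

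Whether replicate numbers in the titles pair libraries was checked by correlating deviations from group means. In TM against DSS the 3 shared numbers gave 0.432, 0.253 and 0.137, all over 0.1, so that comparison counts as paired, although a number was its own best match in 1 of 3. In each other comparison at least some shared number was not over 0.1. Single numbers still reached 0.324 (number 1 in DSS against CON) and 0.326 (number 6 in HMLS against DSS), so the check cannot settle pairing. The labels state no pairing, and the main fits used none.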

Additional observations from a re-analysis of the deposited data

Results flagged for a closer look

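In 7 of 40 groups of libraries, a group being 1 of the 10 genes in 1 of the 4 groups, the highest or lowest library lay farther from the rest than Dixon's 95% critical value allows. For normally distributed values, chance would flag about 1 in 20 groups. The rule was run on FPKM without a log, where high values stand out more, so that rate need not hold here. The genes are measured in the same libraries, so the 40 are not independent. TM library 3 was far above the other TM libraries in Grem1 (36.5 FPKM, the next at 7.55), in Wnt5a (7.60 FPKM, the next at 3.33) and in Rspo1 (1.41 FPKM, the next at 0.381). CON library 8 was far above the other CON libraries in Rspo1 (2.12 FPKM, the next at 0.663) and far below them in Wnt4 (0.347 FPKM, the next at 0.942). Rspo1 in DSS library 6 was 0.796 FPKM, with the next DSS library at 0.233. Rspo3 in HMLS library 6 was 2.11 FPKM, with the next HMLS library at 1.24.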

How the results depend on the processing

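Over 1228 values of single genes under an alternative, 1158 kept their direction and side of the threshold, 21 passed it newly, 4 no longer passed and 45 changed sign, none of them in a comparison in which that gene had passed. Counts of genes called moved as follows. In DSS vs CON the count was 2 with median-ratio scaling, with scaling without the 100 most abundant genes and with limma without trend or robust variance, 0 with the percent of reads mapped as a covariate, and 1 to 2 when each library was left out in turn. In HMLS vs CON it was 1 in 1 fit of 4 groups and with the replicate block, and 1 to 3 with a library left out. In TM vs CON it was 1, Wif1, lower, with a pseudocount of 0.1, with median-ratio scaling, with scaling without the 100 most abundant genes and with limma without trend or robust variance, 1, Wnt4, higher, with the covariate (0.40, adjusted p = 0.0490), and 0 to 2 with a library left out. Causes were not tested.

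In TM vs DSS, the comparison that counts as paired, no gene passed with or without the replicate block, so there was no call that it could remove. Outside that comparison not all shared numbers were over 0.1. Grem1 HMLS vs CON no longer passed with the block (-0.76, adjusted p = 0.106). The count of all genes called with the block against CON was 2176 for DSS, 753 for HMLS and 2000 for TM, and without it 3655, 4565 and 3510. Under the block, log2 differences turned to -0.21 for Rspo1 HMLS vs DSS, -0.20 for Rspo2 HMLS vs DSS, -0.39 for Rspo3 HMLS vs DSS, -0.020 for Rspo1 TM vs DSS and -0.14 for Dkk3 TM vs DSS. With the covariate they turned to -0.18 for Rspo2 DSS vs CON, -0.041 for Wnt4 HMLS vs CON, 0.024 for Rspo1 HMLS vs CON, -0.054 for Wnt5a HMLS vs DSS, 0.40 for Dkk3 HMLS vs DSS, -0.10 for Wnt5a TM vs DSS, 0.12 for Rspo2 TM vs DSS, -0.053 for Wif1 TM vs DSS and 0.043 for Wnt5a HMLS vs TM.

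With each library left out in turn, differences spanned 0 in 13 results that had not passed. They ran from -0.079 to 0.080 for Wnt2b DSS vs CON, -0.40 to 0.16 for Dkk3 DSS vs CON, -0.28 to 0.062 for Wnt5a TM vs CON, -0.25 to 0.064 for Rspo1 TM vs CON, -0.063 to 0.052 for Rspo2 TM vs CON and -0.13 to 0.64 for Grem1 TM vs CON. Between colitis groups they ran from -0.039 to 0.17 for Rspo1 HMLS vs DSS, -0.050 to 0.061 for Rspo2 HMLS vs DSS, -0.52 to 0.037 for Dkk3 HMLS vs DSS, -0.0015 to 0.27 for Wif1 HMLS vs DSS, -0.11 to 0.13 for Wif1 TM vs DSS, -0.23 to 0.11 for Wnt5a HMLS vs TM and -0.23 to 0.034 for Rspo1 HMLS vs TM. Reads per gene are unknown, which limits what can be said of Rspo1 and Rspo2.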
